A study of Mus musculus with 41 samples.

Results

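Ptgs2 and Ptges encode consecutive enzymes of prostaglandin synthesis, and cytosine modification was measured at an amplified stretch of DNA near Ptgs2 and at another within Ptges in mouse bone marrow-derived macrophages (BMDMs). The CpGs were chosen by position: all those on the amplified strand of the 2 amplicons with at least 100 reads in each sample. This gave 5 CpGs at the Ptgs2 locus and 5 at the Ptges locus. They are 10 of the 40 CpGs at the 8 BMDM loci with listed primers, called the panel here. Any other locus read in these samples enters no count, rank or share below. All 10 had enough reads in all 6 BMDM samples, so none was left out.

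Ptgs2 (cyclooxygenase-2) turns arachidonic acid into prostaglandin H2, the precursor shared by the prostaglandins. Ptges (microsomal prostaglandin E synthase) turns prostaglandin H2 into prostaglandin E2, a mediator of fever, pain and inflammation. Macrophages make little of either enzyme at rest and induce both when Toll-like receptor 4 senses bacterial lipid A, and DNA methylation is among the layers that mark the distal regulatory DNA of inducible genes.

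The series holds 41 samples of amplicon sequencing from T cells and BMDMs, and all 6 BMDM samples were, like most of the others, treated with bisulfite. Bisulfite turns unmodified cytosine into uracil, which is read as T, whereas 5-methylcytosine (5mC) and 5-hydroxymethylcytosine (5hmC) are both read as C. The level of a CpG is therefore the share of its reads that kept the C, in percent of all reads showing C or T there, and it stands for 5mC + 5hmC without telling them apart. Whether these loci gain or lose modified cytosine while the macrophages respond to KLA (Kdo2-lipid A, a purified lipid A that acts on Toll-like receptor 4) is the question the time course addresses.

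All BMDMs came from adult wild type C57BL/6 mice and were grown from bone marrow in L929-conditioned medium with M-CSF. They were labelled KLA-0h, KLA-6h and KLA-24h, that is without KLA and after 6 h or 24 h of it, with 2 samples at each time. The labels give neither the sex nor the number of animals behind a sample. Both samples of a time carried the name of a single library, and they are called run 1 and run 2 here. At the Ptgs2 and Ptges loci the runs differed by a median of 0.473 percentage points over 30 pairs of levels, and by 1.69 points at most, at Ptges CpG3 at 24 h. A chi-square test of the reads gave a p under 0.05 for 1 of these 30 pairs (Ptges CpG2 at 6 h, p = 0.00783) and for 4 of 90 pairs at the other 6 loci. Those 4 were all at Il1b: CpG1, CpG3 and CpG4 at 0 h, each lower in run 2, and CpG2 at 6 h. At the Ptgs2 and Ptges loci the runs of a time thus differed by about the sampling noise. The runs of a time were counted as 1 sample, which leaves 3 libraries and no biological replicate at any time. A difference between times cannot be told apart from a difference between libraries.

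Between 2933 and 7564 reads covered each CpG of the 2 loci in each run. At the Ptgs2 locus the median over CpGs was 4457 and 3593 reads at 0 h, 5811 and 2959 at 6 h and 6422 and 4337 at 24 h, in run 1 and run 2. At the Ptges locus it was 3837 and 4422 reads at 0 h, 4504 and 3035 at 6 h and 3826 and 2998 at 24 h. At this depth the 95% Wilson interval of a level reached from 0.469 to 1.63 points to either side in a single run, and from 0.366 to 1.07 points with the reads of both runs summed. Reads of PCR products without molecular identifiers are not independent molecules, so these intervals cover counting error only. The cytosines outside CpGs, 42 at Ptgs2 and 78 at Ptges, measure how complete the conversion was, since they are rarely methylated in macrophages. They were read as T in 99.8% of reads at both loci in every run, and the single least converted of them was read as C in 1.62% of reads.

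The Ptgs2 amplicon spans 318 bp at chr1:152050299-152050616 (mm9). It overlaps no annotated gene and begins 95159 bp beyond the 3′ end of Ptgs2 (ENSMUSG00000032487.7, chr1:151947254-151955140, plus strand), 103.0 kb from the 5′ end of the gene. The nearest annotated gene is Gm17311, a lincRNA 38221 bp away. Ptgs2 is the nearest protein-coding gene, with Pdc 115931 bp away on the other side. The link to Ptgs2 rests on this position and on the name of the primers, and was not tested. CpG1 to CpG5 lie at 152050324, 152050340, 152050477, 152050537 and 152050590. The first of them directly follows the forward primer and the last directly precedes the reverse primer.

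The Ptges amplicon spans 274 bp at chr2:30768797-30769070. It lies within Ptges (ENSMUSG00000050737.10, chr2:30744991-30785383, minus strand), but only in the span of Ptges-004, a processed transcript without an annotated coding sequence, in the intron between its exon 1 (30785282-30785383) and exon 2 (30758678-30758806). No exon overlaps it. The 5′ end of the coding transcript Ptges-001 is 9980 bp away, so that the amplicon sits upstream of the coding form of the gene. CpG1 to CpG5 lie at 30768890, 30768953, 30768959, 30769007 and 30769044, and CpG2 and CpG3 are only 6 bases apart.

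The unconverted genome sequence that holds the 5 CpGs of each locus is shown because the levels below belong to these dinucleotides. Both runs of 300 bases are on the plus strand of mm9, chr1:152050308-152050607 for Ptgs2 and chr2:30768818-30769117 for Ptges, with each CpG in capitals.
Ptgs2 locus: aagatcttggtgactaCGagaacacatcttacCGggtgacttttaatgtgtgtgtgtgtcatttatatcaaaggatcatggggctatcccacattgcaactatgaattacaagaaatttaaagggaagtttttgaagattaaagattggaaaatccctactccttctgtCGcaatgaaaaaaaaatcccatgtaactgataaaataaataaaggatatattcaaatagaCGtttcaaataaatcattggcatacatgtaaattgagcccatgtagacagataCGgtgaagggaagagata
Ptges locus: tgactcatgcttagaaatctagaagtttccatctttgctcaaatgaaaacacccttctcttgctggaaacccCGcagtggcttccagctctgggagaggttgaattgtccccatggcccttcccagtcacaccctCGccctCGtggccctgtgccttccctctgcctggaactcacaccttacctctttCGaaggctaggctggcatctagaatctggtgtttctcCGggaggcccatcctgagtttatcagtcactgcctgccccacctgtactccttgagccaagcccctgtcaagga
The Ptgs2 window is AT-rich, with 34.3% G and C and a ratio of observed to expected CpGs of 0.58. The Ptges window has 54.3% G and C but a ratio of 0.24. With 5 CpGs each they are below the median of 7 CpGs in 32851 mouse promoter windows of the same length (RefSeq, GRCm38.p6).

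Motifs of factors that act in stimulated macrophages were searched on both strands of these windows. The AP-1 motif TGANTCA occurred once at Ptges as TGACTCA (chr2:30768818-30768824, 66 bases from the nearest CpG) and is found in 7.81% of the promoter windows. The C/EBP motif TTGCNNAA occurred once at Ptges as TTGCTCAA (chr2:30768852-30768859, 31 bases from the nearest CpG) and is found in 10.8%. The CRE motif TGACGTCA (1.79% of promoters), the PU.1 motif GAGGAAGT (3.2%), the NF-kB motif (0.13%) and the IRF motif (3.44%) had no match at Ptges, and none of the 6 had a match at Ptgs2. No CpG of either locus lies inside a match, and a match or its absence says nothing about binding of the factor.

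Both loci were highly modified at every time. At the Ptgs2 locus the mean over the 5 CpGs was 90.4% and 90.8% in the runs at 0 h, 92.02% and 92.04% at 6 h, and 91.0% and 90.7% at 24 h. At the Ptges locus it was 87.1% and 86.7% at 0 h, 88.8% and 89.4% at 6 h, and 85.6% and 85.1% at 24 h. The means over runs were 90.6% ± 0.246 (SD, n = 2 runs), 92.03% ± 0.0158 and 90.9% ± 0.199 for Ptgs2, and 86.9% ± 0.268, 89.1% ± 0.44 and 85.4% ± 0.348 for Ptges. Ptgs2 stood above Ptges in every run, and at both loci the 6 h library was the highest. That was not particular to them, since the 6 h mean was also the highest at Batf and Alcam. At Il1b it was the highest in run 2 but not in run 1, and at Mdfic and Il6 it was not the highest.

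Among the 8 loci of the panel, ordered from the highest mean over runs, Ptgs2 ranked 4, 2 and 3 at 0, 6 and 24 h, and Ptges ranked 5 at each time. At 0 h Alcam (92.1%) and Mdfic (92.02%) lay above Ptgs2, and Ptges was followed by Il6 (72.5%), Batf (56.6%) and Il1b (44.6%). The Ptgs2 mean at 24 h (90.9% ± 0.199) differed from those of Mdfic (90.9% ± 0.1) and Alcam (90.6% ± 0.277) by no more than about the SD of the runs. By the root-mean-square difference of mean levels over the 3 times, the locus most like Ptgs2 was Mdfic (0.916 points) and the one most like Ptges was Ptgs2 (4.19 points). The prostaglandin loci were thus on the highly modified side of the panel, away from Il1b and Batf.

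The 5 CpGs of the Ptgs2 locus were close to each other. At 0 h the lowest was CpG5, with 85.5% in run 1 and 85.0% in run 2, and the highest mean was that of CpG2, with 93.6% and 93.98%, which CpG1 did not differ from beyond the runs. The span from the lowest to the highest CpG mean was 8.52 points at 0 h, 11.1 at 6 h and 11.8 at 24 h, and CpG5 was the lowest at each time. CpG1, CpG2 and CpG3 lay between 93.5% and 93.8% at 0 h, and CpG4 and CpG5 were the less modified positions. Their 22 bases of context on the plus strand are shown, with the CpG in capitals.
Ptgs2 CpG4: ttcaaatagaCGtttcaaataa
Ptgs2 CpG5: tagacagataCGgtgaagggaa

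The 5 CpGs of the Ptges locus spread further. CpG3 had the lowest mean at each time, with 73.2% and 73.1% in the runs at 0 h, 79.9% and 81.1% at 6 h, and 72.4% and 70.7% at 24 h. CpG4 had the highest mean at each time, with 95.9%, 96.5% and 96.95%. CpG1 was the other less modified position, with 79.7% and 79.1% at 0 h, 80.2% and 80.9% at 6 h, and 73.4% and 73.3% at 24 h. CpG2 (90.7%, 91.5% and 92.3%) and CpG5 (95.4%, 96.4% and 92.6%) completed the locus. At 6 h the order at both ends depended on the run, since CpG1 was below CpG3 in run 2 and CpG5 (96.6%) was above CpG4 (96.5%) in run 1. The span was 22.8, 16.01 and 25.4 points at 0, 6 and 24 h, and neighbours 6 bases apart, CpG2 and CpG3, differed by far more than the runs did at all 3 times. The 22 bases around CpG1, CpG3 and CpG4 are shown, as the positions with the 2 lowest means and the highest, with the measured CpG in capitals and CpG2 in lower case in the context of CpG3.
Ptges CpG1: ctggaaacccCGcagtggcttc
Ptges CpG3: ccctcgccctCGtggccctgtg
Ptges CpG4: ttacctctttCGaaggctaggc

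**Figure D1:**
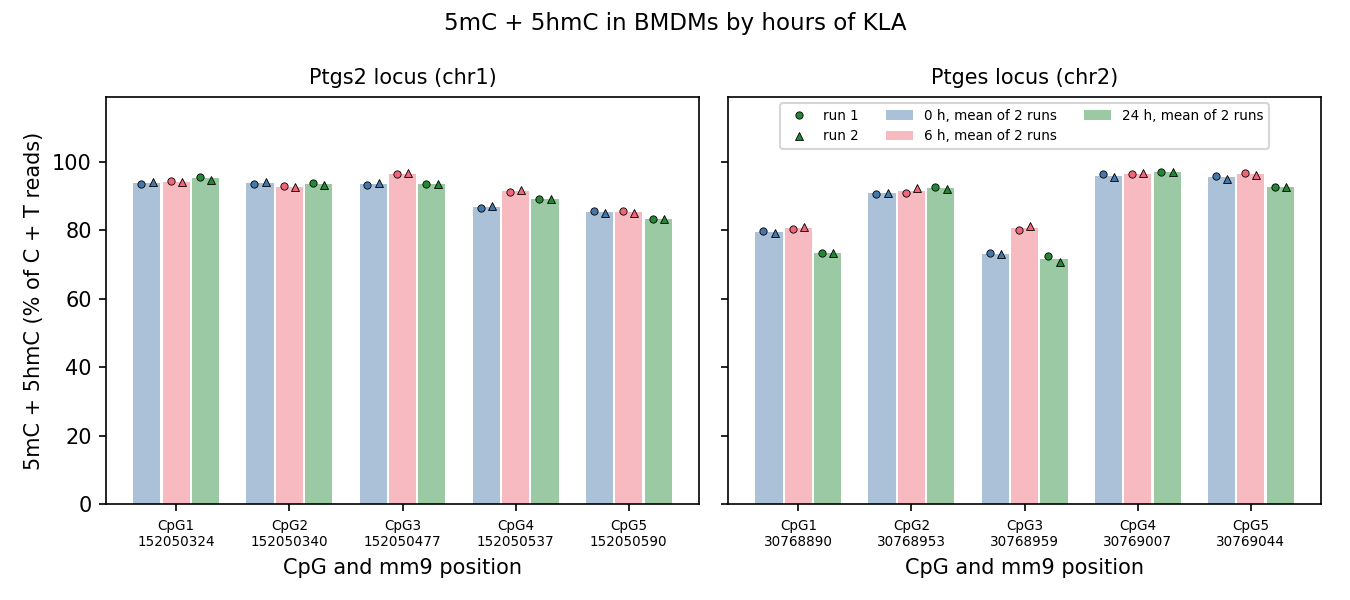
Levels of 5mC + 5hmC, in percent of reads that kept the C, at the 5 CpGs of the Ptgs2 locus (left) and of the Ptges locus (right) in BMDMs at 0, 6 and 24 h of KLA, with mm9 positions on the horizontal axes. Bars are means of 2 runs of a library and points are the runs, and all points lie between 70.7% and 97.1%, with Ptges CpG1 and CpG3 the lowest.

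For each pair of times the reads of all 40 CpGs were compared by a two-sided Fisher's exact test, which compares libraries and not conditions. A CpG was called different when the p adjusted by the Benjamini-Hochberg method was under 0.05, the means differed by at least 10 percentage points and both runs had the same sign. A CpG less than 10 points below full modification in the earlier library could be called lower later, but not higher. At 0 h these were Ptgs2 CpG1, CpG2 and CpG3 (93.7%, 93.8% and 93.5%) and Ptges CpG2, CpG4 and CpG5 (90.7%, 95.9% and 95.4%). The same count is also given without the minimum of 10 points.

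Between 0 and 6 h no CpG of Ptgs2 or Ptges was called, 0 of 10, as for the whole panel with 0 of 40 (0%). The largest difference at either locus was at Ptges CpG3, which was 7.36 points higher in the 6 h library (6.69 in run 1 and 8.03 in run 2, 95% interval of the read counts 5.94 to 8.56 points, adjusted p = 1.49e-25 by Fisher's exact test). At Ptgs2 it was CpG4, with 86.4% and 87.1% in the runs at 0 h and 91.2% and 91.6% at 6 h, which made 4.62 points (3.63 to 5.53, adjusted p = 4.43e-20). Ptgs2 CpG3 followed with 93.2% and 93.8% at 0 h and 96.4% and 96.6% at 6 h, 2.98 points. The runs of the 2 times did not overlap at these 3 CpGs.

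Without the minimum, 5 of the 10 CpGs passed between 0 and 6 h, beside 45% of the panel. The 6 h library was higher at 4 of them (Ptgs2 CpG3 and CpG4, Ptges CpG3 and CpG5) and lower at Ptgs2 CpG2 (-1.06 points). Differences had a median size of 1.01 points over the 10 CpGs and 1.59 points over the 30 of the other loci. The share that passed at the prostaglandin loci was near that of the panel, and the typical size was smaller than at the other loci, a gap that was not tested. Some of the other loci had fewer reads, with a median in run 1 at 0 h of 835 at Batf and 400 at Alcam. It was 4457 at Ptgs2 and 3837 at Ptges. Batf (56.6%) and Il1b (44.6%) also lay at mid levels, where counting error is larger. These limits apply to the medians of the later comparisons too. The mean of the Ptges locus was 2.17 points higher at 6 h (1.67 and 2.67 in the runs), and that of the Ptgs2 locus 1.43 points higher (1.59 and 1.26). By the mean over runs the Ptges difference was the largest in size of the 8 loci, but in run 2 that of Il1b was larger (2.75 points).

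Between 0 and 24 h, again, 0 of 10 CpGs at Ptgs2 and Ptges and 0 of 40 on the panel (0%) were called. Ptges CpG1 had the largest difference, -6.11 points in the 24 h library (-6.36 and -5.87 in the runs, interval -7.31 to -4.84, adjusted p = 7.58e-21 by Fisher's exact test). Ptges CpG5, next to the reverse primer, was also lower at 24 h, with 95.7% and 95.1% in the runs at 0 h and 92.7% and 92.5% at 24 h (-2.78 points). Ptges CpG3, the position with the largest 6 h difference, was at 71.6% in the mean at 24 h against 73.1% at 0 h, a difference of -1.59 points that did not pass (adjusted p = 0.0607 by Fisher's exact test). At Ptgs2, CpG4 was 2.32 points and CpG1 1.44 points higher than at 0 h, and CpG5 was lower (-1.94 points).

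Without the minimum, 7 of the 10 CpGs passed between 0 and 24 h, 4 with the 24 h library higher and 3 with it lower, beside 70% of the panel. Ptgs2 CpG2 and CpG3 differed in opposite directions in the 2 runs and did not pass. The median size was 1.59 points at the 10 CpGs and 2.57 points at the other loci. For the Ptgs2 locus as a whole the 24 h mean was 0.275 points above 0 h, with 0.589 in run 1 and -0.0395 in run 2, so that its direction was not shared by the runs. For the Ptges locus it was -1.58 points (-1.52 and -1.63), smaller in both runs than that of Il6 (2.95 points, with 2.76 and 3.14 in the runs).

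Between 6 and 24 h, 0 of 10 CpGs at Ptgs2 and Ptges were called, beside 1 of 40 on the panel (2.5%), which was Batf CpG5 with -10.2 points (-12.1 in run 1 and -8.39 in run 2, so that it fell short of the minimum in run 2). Of the 10, Ptges CpG3 came closest, with -8.95 points (-7.53 in run 1 and -10.4 in run 2, interval -10.1 to -7.34, adjusted p = 2.43e-33 by Fisher's exact test). With the reads of run 2 alone it passed the minimum of 10 points, so its call depends on the run. Ptges CpG1 (-7.27 points) and CpG5 (-3.74 points) were also lower at 24 h, and so were Ptgs2 CpG3 (-3.07 points), CpG4 (-2.29 points) and CpG5 (-2.05 points).

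Without the minimum, 8 of the 10 CpGs passed between 6 and 24 h, 2 with the 24 h library higher (Ptgs2 CpG1 and CpG2) and 6 with it lower, beside 60% of the panel. The median size was 2.17 points at the 10 CpGs and 2.31 points at the other loci. The mean of the Ptges locus differed by -3.75 points between 6 and 24 h (-3.19 and -4.30 in the runs), the largest size among the 8 loci, and that of the Ptgs2 locus by -1.15 points (-0.999 and -1.30). The comparisons share libraries, so a high value in the 6 h library enters both the first and the last of them.

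**Figure D2:**
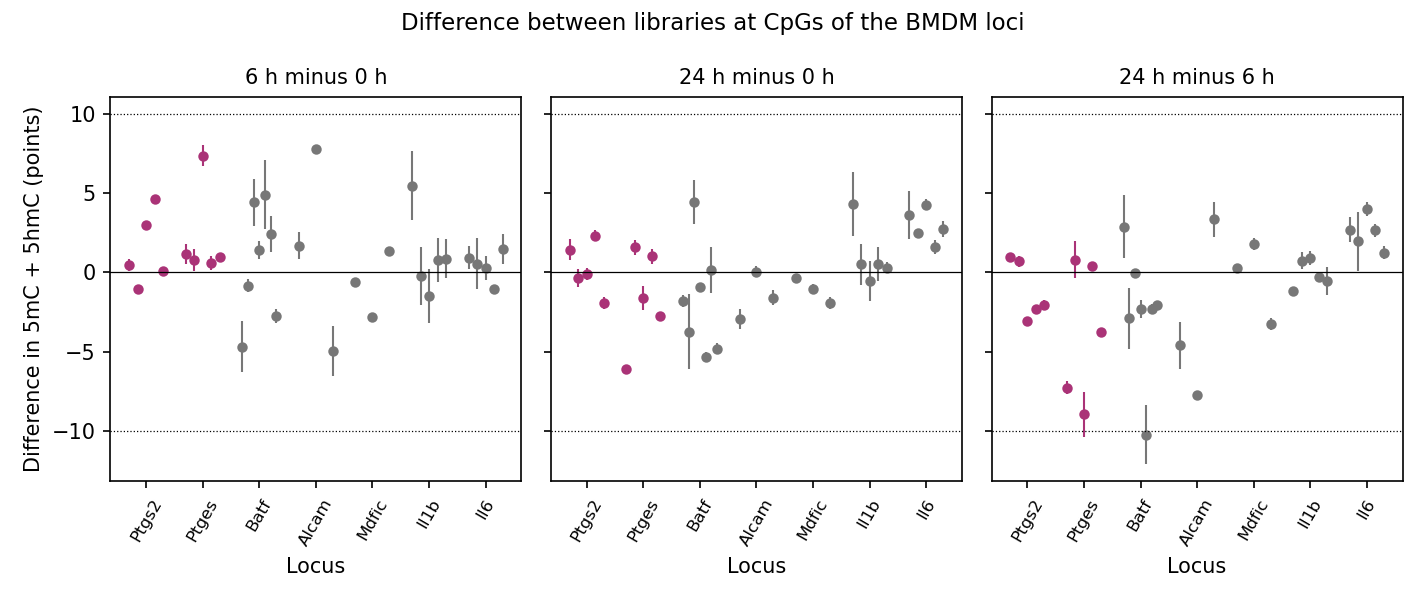
Difference in 5mC + 5hmC between libraries, in percentage points, at each of 33 CpGs of 7 BMDM loci, with the CpGs of a locus side by side from left to right in genome order and Ptgs2 and Ptges in purple. Points are means of 2 runs, vertical lines join the differences of run 1 and run 2, and the dotted lines at 10 and -10 points mark the minimum for a call, which 1 CpG (Batf CpG5, 24 h minus 6 h) exceeded.

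At single CpGs the order of the 3 libraries took different forms. Ptges CpG3 and Ptgs2 CpG3 and CpG4 were highest at 6 h, and at Ptgs2 CpG3 the 24 h level (93.5% and 93.4%) lay within the range of the 0 h runs. Ptges CpG1 differed little between 0 and 6 h (1.16 points, adjusted p = 0.0875 by Fisher's exact test) and was lower only at 24 h. Ptges CpG4, between 95.6% and 97.1% in the runs, and Ptgs2 CpG2, between 92.7% and 93.98%, differed by about 1 point or less between any 2 times. The levels come from pooled cells, so a change in all cells and a change in the share of a subset of cells cannot be told apart.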

How the data were processed

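Amplicons of bisulfite-treated DNA were sequenced in 6 BMDM samples, 2 each at 0, 6 and 24 h. The authors used BSMAP to align the read pairs to mm9 (-w 2 -v 5 -q 30) and deposited, for each cytosine, counts of reads with C and with C or T, without normalization. BSMAP's version is not given in the sources used here. Reads beyond 5 mismatches were lost before counting.

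Primers were placed on NCBIM37 (mm9) with GENCODE genes, and CpG levels were computed from the deposited counts on the amplified strand, with at least 100 reads in each run. Non-CpG cytosines gave the conversion. Runs were averaged for levels and summed for the two-sided Fisher's exact test, with Benjamini-Hochberg adjustment over 40 CpGs. Intervals were Wilson for levels and Newcombe for differences, at 95%. Each CpG of both loci is accounted for, and those with the lowest and highest level and the largest differences are named in full. Sites named beyond these were chosen after their values were seen. The alternatives were other minimum reads (20 and 500) and differences (5 points or none), single runs, read-weighted means, a correction for conversion, and limma with the samples as replicates. The tests were first run on simulated data with mid-range starting levels, below those of most CpGs at both loci. The simulation thus did not cover unchanged CpGs near full modification. Values of 1 locus of the panel are not reported here, though its CpGs enter the panel counts, ranks and adjustment. The genes, CpGs and motifs were chosen with earlier results of these data known. Software was Python 3.11.15, numpy 2.4.6, scipy 1.17.1, pandas 2.3.3, pysam 0.24.0, matplotlib 3.10.9, R 4.3.3 and limma 3.58.1.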

Additional observations from a re-analysis of the deposited data

Results flagged for a closer look

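The remaining 35 samples of the series enter no comparison here, and 33 of them had no read at the Ptgs2 or Ptges locus. TdgWT-Th2-1st-BS replicate 2, a T cell sample, had up to 4 reads at a cytosine of the Ptgs2 amplicon, above the fixed flagging limit of 3. Of its reads at CpGs of the 2 loci 18 of 20 were C, and of those at other cytosines 4 of 192. TdgKO-Th2-1st-BS replicate 2 had up to 2 reads at a cytosine. The source of these reads was not tested, and none entered a level.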

How the results depend on the processing

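With a minimum difference of 5 points the calls on the panel were 3 (6 h against 0 h), 3 (24 h against 0 h) and 5 (24 h against 6 h), of which 1 (Ptges CpG3), 1 (Ptges CpG1) and 2 (Ptges CpG1 and CpG3) were at the prostaglandin loci. With no minimum difference they were 18, 28 and 24. Counts with other read minimums were the same as reported, though 3 of the 40 CpGs, none at Ptgs2 or Ptges, were lost at 500 reads. Run 1 or run 2 alone gave 0 to 0, 0 to 0 and 1 to 1 calls for the 3 comparisons, and the call between 6 and 24 h was Ptges CpG3 with run 2 alone.

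Weighting CpGs by reads moved the Ptgs2 mean to 90.9% at 0 h, 92.2% at 6 h and 91.2% at 24 h, since its less modified CpG4 and CpG5 had fewer reads than CpG1 and CpG2. The correction for conversion changed no mean by more than the SD of the runs. For the difference of the Ptgs2 mean between 0 and 24 h the single runs gave -0.0395 and 0.589 points, so its sign depends on the run. The Ptges mean differences kept their direction in both runs, from 1.67 to 2.67 points for 6 h minus 0 h and from -1.63 to -1.52 points for 24 h minus 0 h. Other read minimums could not move these means, as each CpG of both loci had at least 2933 reads in each run.

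With the samples taken as replicates in limma, calls of at least 10 points numbered 0, 0 and 1 without the replicate block and 0, 0 and 1 with it. Without the block, 21, 27 and 22 of the 40 CpGs had an adjusted p under 0.05 (22, 27 and 24 unadjusted), among them 5, 7 and 7 of the 10 at Ptgs2 and Ptges. Ptgs2 CpG2, which passed Fisher's exact test between 6 and 24 h, did not pass in limma. With the block these were 20, 25 and 21 (21, 25 and 22 unadjusted), with 4, 6 and 6 at the prostaglandin loci. The block lost Ptgs2 CpG2 between 0 and 6 h, and Ptgs2 CpG5 between 0 and 24 h and between 6 and 24 h. The levels of same-numbered samples did not deviate together across the 40 CpGs (correlations of -0.174, -0.107 and 0.0858 between pairs of times). Their read coverage did share a pattern. In run 1, Ptges CpG2 had 5639, 6728 and 5586 reads at 0, 6 and 24 h, and CpG3 had 3837, 4504 and 3826. In run 2 these were 4422, 3035 and 3005 at CpG2, and 4429, 3036 and 2998 at CpG3. The source of this pattern was not tested. The limma p-values set differences between times against the spread between runs of a library, not between libraries of a time. Counting error limits the level of a single run to 1.63 points at most and that of summed runs to 1.07, and a single library at each time limits every difference.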
